A study of Mus musculus with 117 samples.

Results

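The genes described here are the sensors of foreign chemicals in the liver and a set of genes switched on by one of them. They are 10 of 21631 protein-coding genes, counted on the autosomes and X: the receptors Ahr, Nr1i2 and Nr1i3, the partner Arnt, the repressor Ahrr, and the target genes Cyp1a1, Cyp1a2, Cyp1b1, Nqo1 and Tiparp. They were chosen by name. Each gene was taken as its span in mouse genome build GRCm38 with 2.0 kb added on both sides, which gave 1739 bins of 200 bp, from 46 for Nr1i3 to 427 for Ahrr.

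The study mapped 4 histone marks, H3K4me1, H3K4me3, H3K27ac and H3K27me3, by chromatin immunoprecipitation sequencing in hepatocytes, the metabolic cells of the liver. The cells came from livers of female mice, 12 weeks old, of 9 inbred strains: C57BL/6J, DBA/2J, A/J, 129S1/SvImJ, NZO/HlLtJ and NOD/ShiLtJ, and the wild-derived WSB/EiJ, PWK/PhJ and CAST/EiJ. The labels name no treatment. Each strain had 13 libraries, 1 per mark for each of 3 mice and 1 input, which makes 117 in all. The deposited file of a strain assigns every bin to 1 of 14 chromatin states, so the mice of a strain are combined, each strain gives 1 value and no error within a strain can be given. The read depth behind the states is unknown. State numbers are used only as names, since the files do not say which marks a state carries. The strains also have ancestors in common, so they are not wholly independent values.

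As background, the aryl hydrocarbon receptor Ahr is a transcription factor held in the cytoplasm until a ligand such as dioxin or a plant indole binds it. It then enters the nucleus, pairs with Arnt and binds DNA at a short core sequence, GCGTG, near genes of xenobiotic metabolism. Its targets include Ahrr, which competes with it, and Tiparp, which modifies it with ADP-ribose, so that both damp the response. Nr1i2 encodes the pregnane X receptor (PXR) and Nr1i3 the constitutive androstane receptor (CAR), nuclear receptors that respond to drugs and bile acids with Rxra as partner. In mouse liver Cyp1a2 is made without an inducer, Cyp1a1 is made mainly after induction, and Cyp1b1 is made mostly outside the liver.

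The promoters of 5 members are printed because their start regions carried different states, described below. Each runs from 250 bases before to 50 after the listed start, 5′ to 3′ on the gene's own strand, from RefSeq, build GRCm38.p6. The core GCGTG, or CACGC where it reads on the opposite strand, is in capitals. The lines hold Cyp1a1 (chr9:57697363-57697662, plus strand), Cyp1a2 (chr9:57683606-57683905, minus strand), Cyp1b1 (chr17:79715012-79715311, minus strand), Ahrr (chr13:74292282-74292581, minus strand) and Tiparp (chr3:65528197-65528496, plus strand).
Cyp1a1: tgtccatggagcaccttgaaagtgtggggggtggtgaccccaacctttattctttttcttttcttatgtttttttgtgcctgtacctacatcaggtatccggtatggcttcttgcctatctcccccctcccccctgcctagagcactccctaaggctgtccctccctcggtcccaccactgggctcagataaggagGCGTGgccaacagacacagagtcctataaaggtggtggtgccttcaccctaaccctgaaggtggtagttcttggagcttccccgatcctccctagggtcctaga
Cyp1a2: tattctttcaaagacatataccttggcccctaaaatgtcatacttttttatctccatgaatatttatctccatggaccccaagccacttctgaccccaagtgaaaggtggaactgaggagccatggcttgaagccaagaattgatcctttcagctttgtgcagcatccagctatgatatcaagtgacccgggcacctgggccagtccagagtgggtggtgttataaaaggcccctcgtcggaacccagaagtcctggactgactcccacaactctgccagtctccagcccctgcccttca
Cyp1b1: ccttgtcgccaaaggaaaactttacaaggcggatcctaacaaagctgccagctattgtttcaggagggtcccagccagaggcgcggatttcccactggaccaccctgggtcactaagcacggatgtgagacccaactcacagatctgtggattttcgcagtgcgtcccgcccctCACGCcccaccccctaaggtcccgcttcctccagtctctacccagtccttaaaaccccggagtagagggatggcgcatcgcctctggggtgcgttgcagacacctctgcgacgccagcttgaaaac
Ahrr: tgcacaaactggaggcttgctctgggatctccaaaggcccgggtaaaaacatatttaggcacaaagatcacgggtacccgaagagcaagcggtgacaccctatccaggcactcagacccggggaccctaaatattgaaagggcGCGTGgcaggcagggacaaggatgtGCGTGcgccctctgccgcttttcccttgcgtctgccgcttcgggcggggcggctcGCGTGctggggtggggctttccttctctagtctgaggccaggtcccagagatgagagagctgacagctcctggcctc
Tiparp: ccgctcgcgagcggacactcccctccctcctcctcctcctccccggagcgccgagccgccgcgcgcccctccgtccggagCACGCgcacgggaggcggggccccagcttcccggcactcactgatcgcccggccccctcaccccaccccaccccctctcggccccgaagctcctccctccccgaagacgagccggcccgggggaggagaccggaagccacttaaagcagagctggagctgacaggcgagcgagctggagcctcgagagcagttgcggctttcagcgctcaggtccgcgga

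A promoter was listed for 9 members, and 5 of these held the core on either strand: Ahrr 3 times, and Arnt, Cyp1a1, Cyp1b1 and Tiparp once each. Of all 32851 promoters of this length in the table, 32.4% held it. The promoters of Cyp1a2, Nqo1, Nr1i2 and Nr1i3 held no match in this window. The CG dinucleotide, which marks promoters of broadly used genes when frequent, occurred 34 times in Tiparp, 19 in Arnt, 17 in Ahrr and 16 in Cyp1b1. It occurred between 2 and 5 times in the promoters of Cyp1a1, Cyp1a2, Nqo1, Nr1i2 and Nr1i3, against a median of 7 over all promoters. The 2 to 5 CG group joins the receptors CAR and PXR with the enzymes Cyp1a1, Cyp1a2 and Nqo1. The 16 to 34 group joins both repressors of the pathway with Arnt and Cyp1b1. These groups were drawn after the counts were seen, and 45.8% of all promoters held at least 9 CG.

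States 1 to 4 are treated as 1 class below, because an earlier look at these files found them at genes of the hepatocyte. The class held 6.41% ± 0.763 of the bins of the median protein-coding gene (mean ± SD over the 9 strains). Of the 10 genes, 8 were above the strain's median gene and 2 were below it in 9 of 9 strains, with an adjusted p of 0.00473 each (exact two-sided sign-flip permutation test, Benjamini-Hochberg over all protein-coding genes). This share of calls says little by itself, since 46.0% of all protein-coding genes were called higher and 44.8% lower by the same rule, and the smallest p the 9 strains allow is 0.0039. Against the median of all annotated genes, which was 0, Ahrr lay above by 1.01 points and Cyp1b1 equalled it, so the calls below the median did not hold there. Nr1i3, Cyp1a2 and Nr1i2 were the 3 members with at least 70% of their bins in the class in all 9 strains, which 4.09% of protein-coding genes met, by a rule written after the values were seen. The class was between 100% and 0% of a gene's bins, and the median over the members was 43.0%, against 6.92% over all protein-coding genes.

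**Figure D1:**
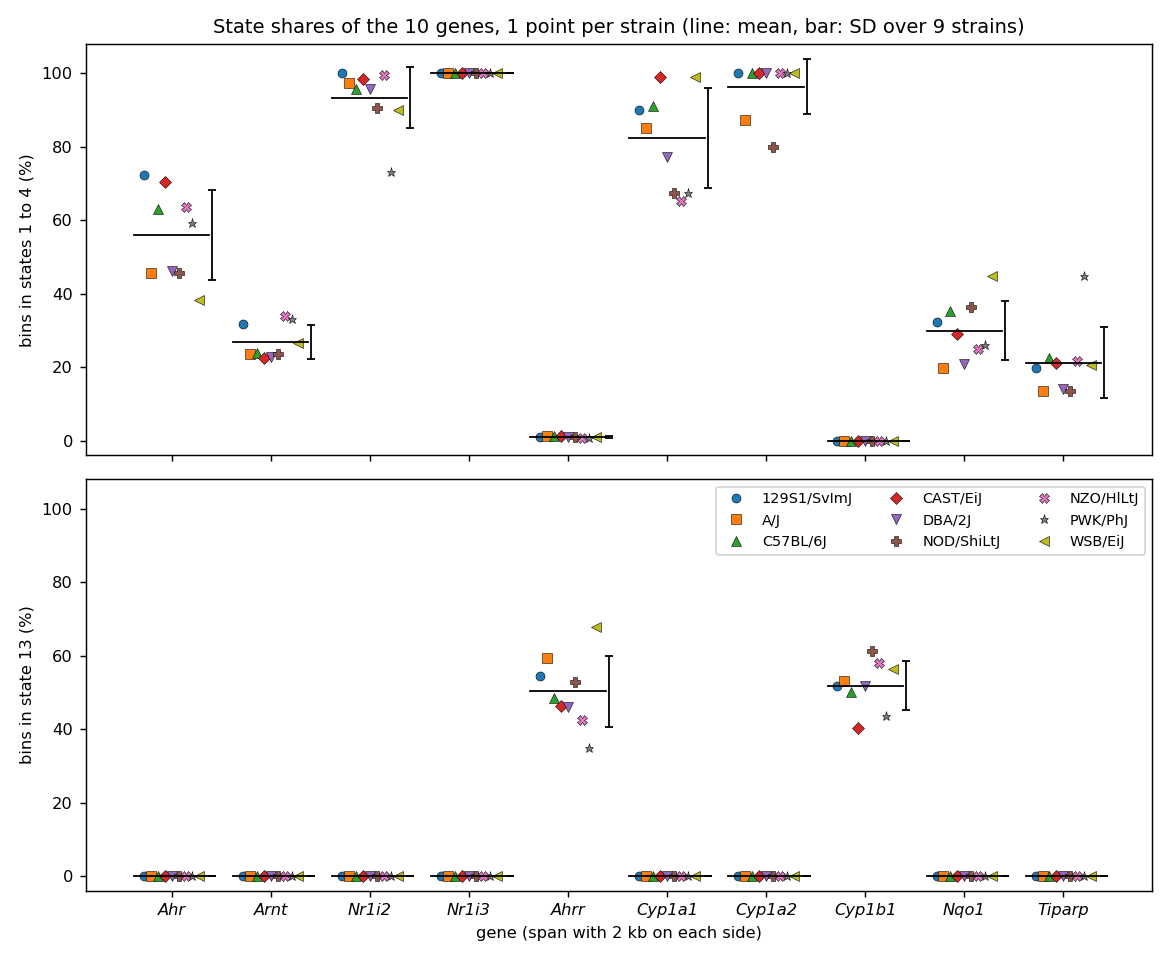
Percent of the 200-bp bins of each gene in states 1 to 4 (top) and in state 13 (bottom), with 1 symbol per strain, a line at the mean and a bar for the SD over the 9 strains. Nr1i3 sits at 100% in every strain in the top panel, while Ahrr and Cyp1b1 lie near 0 there and are the members above 0 in the bottom panel.

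Among the sensors, Nr1i3 (CAR; gene ID 12355, chromosome 1, 171213934 to 171218845) had all 46 bins in states 1 to 4 in all 9 strains. What differed between strains was the state within that class. State 1 covered 60.9% of the gene in PWK/PhJ, a median of 78.3% and 100% in NOD/ShiLtJ, and state 2 covered 39.1% in PWK/PhJ and 0 in NOD/ShiLtJ and NZO/HlLtJ. PWK/PhJ was therefore lowest in state 1 and highest in state 2. Exchange of states 1 and 2 made up 69.7% of the differences between strain pairs at Nr1i3. Its padded span also holds part of Tomm40l, a mitochondrial import gene, so bins at that end belong to both. The longest PWK/PhJ run of state 2, 4.43 to 6.83 kb after the start, lies within Tomm40l and mostly beyond the end of Nr1i3.

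Nr1i2 (PXR; gene ID 18171, chromosome 16, 38248349 to 38294849) was almost as complete. Its share of states 1 to 4 was lowest in PWK/PhJ at 73.2%, had a median of 95.7% and reached 100% in 129S1/SvImJ. The other 8 strains lay at 90.2% or above, so PWK/PhJ stood apart. The stretches that all strains shared lay in one order along the gene. State 3 lay at the start (0.02 to 0.82 kb downstream in every strain), state 1 held a stretch of 13000 bp from 1.82 to 14.82 kb, state 2 a stretch from 21.62 to 23.82 kb, and state 4 a stretch from 41.42 to 47.42 kb. The strains thus shared these stretches, and differed mainly between them.

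At Nr1i2, exchange of states 4 and 14 made up 33.4% of the differences between strain pairs, of states 2 and 4 20.1%, and of states 1 and 2 16.3%. State 14 is the state that covers most of the genome. State 14 was absent from Nr1i2 in 129S1/SvImJ, A/J, CAST/EiJ and NZO/HlLtJ. It took 1.4 kb in DBA/2J, 2.0 kb in C57BL/6J, 3.8 kb in NOD/ShiLtJ, 4.8 kb in WSB/EiJ and 11.8 kb in PWK/PhJ. Of the WSB/EiJ total, 1.0 kb lay in the padding before the start, at -2.18 to -1.18 kb. The run inside the gene was 3.8 kb, as in NOD/ShiLtJ. The PWK/PhJ total came from 3 runs, of which the longest spanned 6.4 kb from 30.62 to 37.02 kb after the start. In 2200 bp of that run, 38259401 to 38261600, all 8 other strains had state 4. PWK/PhJ also had the most state 14 in the median protein-coding gene, at 69.7% against a median over strains of 61.4%. Over the whole genome DBA/2J had the most, at 74.0%.

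Ahr (gene ID 11622, chromosome 12, 35497979 to 35534989) was intermediate and varied widely. Its share of states 1 to 4 was 38.3% in WSB/EiJ, had a median of 59.2% and was 72.3% in 129S1/SvImJ. The strains did not lie around 1 level: A/J, DBA/2J, NOD/ShiLtJ and WSB/EiJ were at or below 46.1%, and the others at or above 59.2%. The higher-coordinate end of the gene was alike in all strains. There state 3 held 35534401 to 35535200 and state 1 held 3800 bp beside it, 35529401 to 35533200.

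The middle and the other end of Ahr set the strains apart. A run of state 14 crossed 13.02 to 14.82 kb from the lower-coordinate end in all 9 strains, but its length ranged from 1.8 kb in CAST/EiJ through a median of 6.8 kb to 16.2 kb in WSB/EiJ. Exchange of states 4 and 14 made up 37.4% of the differences between strain pairs. At the lower-coordinate end, C57BL/6J had states 4 and 6 over 2400 bp (35495801 to 35498200) where the other 8 strains had state 14. Most of this stretch lies in the 2.0 kb added outside the gene, whose own span begins at 35497979. In 16 bins of the padded span C57BL/6J differed from all 8 other strains while these agreed, more than for any other strain at this gene. Of these bins, 12 were in that stretch. C57BL/6J and DBA/2J are known to carry Ahr alleles of high and low ligand affinity. Between these strains 37.9% of Ahr's bins differed, and 26 of the 36 strain pairs were more alike. Their shares of states 1 to 4 at Ahr were 63.1% and 46.1%. The labels do not give the Ahr alleles of the strains, and whether states follow alleles was not tested.

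**Figure D2:**
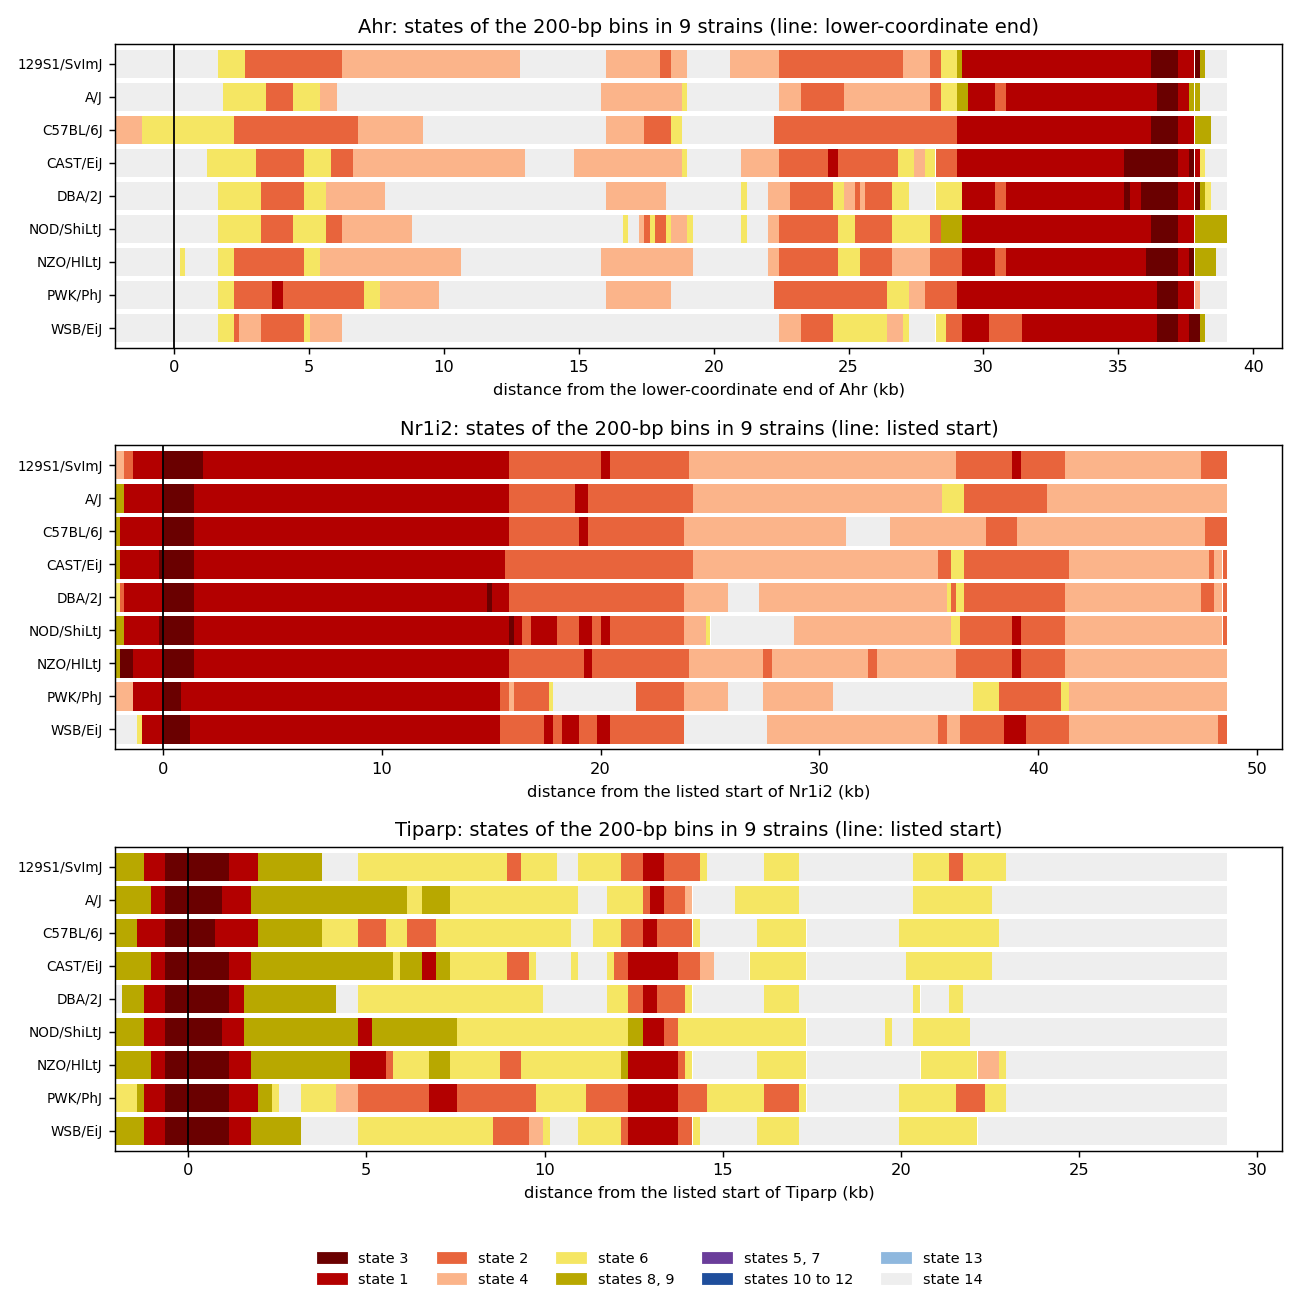
State of each 200-bp bin along Ahr, Nr1i2 and Tiparp in the 9 strains, by distance in kb from the listed start (from the lower-coordinate end for Ahr), coloured by state. The start of Nr1i2 and of Tiparp and the higher-coordinate end of Ahr look alike in all strains, PWK/PhJ has 3 runs of state 14 in Nr1i2 and the most state 2 in Tiparp, and C57BL/6J differs at the lower-coordinate end of Ahr.

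Arnt (gene ID 11863, chromosome 3, 95434367 to 95497240), the partner of Ahr and of the hypoxia factors, was the member with the smallest share of bins in different states between strains. Its share of states 1 to 4 ranged from 22.6% in CAST/EiJ through a median of 23.8% to 33.9% in NZO/HlLtJ. The 3 highest values were NZO/HlLtJ, PWK/PhJ with 33.0% and 129S1/SvImJ with 31.8%, and the other 6 strains lay at or below 26.5%. State 3 covered the start in all strains (-0.19 to 0.41 kb around it), with 7 bins of state 1 in each strain's start window. State 14 held an uninterrupted 17000 bp inside the gene, 27.01 to 44.01 kb from the start, in all 9 strains. The end of its padded span reaches Ctsk, a protease gene.

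Ahrr (gene ID 11624, chromosome 13, 74211118 to 74292331), the repressor of Ahr, had few bins in states 1 to 4. The class was between 0.703% (NZO/HlLtJ and PWK/PhJ) and 1.41% (A/J and C57BL/6J), with a median of 0.937%. These bins lay in the 2.0 kb added at the end far from the Ahrr start. There the padded span reaches Exoc3, a gene of vesicle secretion. State 13 covered 34.9% of Ahrr in PWK/PhJ, a median of 48.5% and 67.9% in WSB/EiJ, with a mean of 50.4% ± 9.68 (SD, n = 9). Ahrr was thus filled mainly by states 13 and 14, and exchange of these made up 82.3% of its differences between strains.

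Of the 10 genes, 2 were above the strain median for state 13, Ahrr and Cyp1b1, with an adjusted p of 0.0159 (same exact permutation test), where 28.4% of all protein-coding genes were called. The median gene had 0 bins of state 13 in every strain, so the sign of this difference could not vary and the test says only that state 13 was present in all 9 strains. The other 8 members had no bin of state 13 in any strain.

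Within Ahrr a short block of states 5 and 7, which together are rare in the genome, recurred in all strains. All 9 blocks covered 74260001 to 74260400, 31.93 to 32.33 kb after the start, and their lengths ran from 0.6 through a median of 0.8 to 1.2 kb. By a rule written after this was seen, 1.92% of protein-coding genes had a bin of state 5 or 7 in all 9 strains. State 13 held 8400 bp beyond that block, 37.73 to 46.13 kb from the start, in every strain. WSB/EiJ alone had state 13 over a further 2000 bp at 74218201 to 74220200 and 1800 bp at 74274001 to 74275800, where the others had state 14.

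The receptor and its repressor were set side by side within each strain. Ahr exceeded Ahrr in the share of states 1 to 4 by 55.0 percentage points ± 12.3 (SD, n = 9), in 9 of 9 strains (adjusted p = 0.00558, exact two-sided sign-flip permutation test, Benjamini-Hochberg over 10 pair tests). The smallest difference was 37.4 points in WSB/EiJ and the largest 71.4 in 129S1/SvImJ, so the ranges of the genes did not overlap. Ahrr had at most 1.41% of its bins in the class, so near the floor that the sign was almost fixed. For CAR and PXR the difference, Nr1i3 minus Nr1i2, was 6.61 points ± 8.35, above 0 in 8 strains and 0 in 129S1/SvImJ (adjusted p = 0.00977, same exact test). Nr1i3 is at 100% in every strain, so no strain could lie below 0 and this value is a description. PWK/PhJ was the highest, at 26.8 points, and without it the mean was 4.08. The size also depends on the bins counted, at 22.7 points with 10 kb of padding and 39.9 with states 1 to 3 alone.

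The cytochrome P450 genes Cyp1a1 and Cyp1a2 lie next to each other on chromosome 9 and point away from each other, with starts 13.957 kb apart. Cyp1a2 (gene ID 13077, 57676937 to 57683655), the enzyme that clears caffeine, had 100% of its bins in states 1 to 4 in 7 strains, 87.3% in A/J and 80.0% in NOD/ShiLtJ. Cyp1a1 (gene ID 13076, 57687928 to 57703824), which oxidises polycyclic hydrocarbons, had 65.3% in NZO/HlLtJ, a median of 85.1%, and 99.0% in CAST/EiJ and WSB/EiJ. The listed span of Cyp1a1 begins 9.685 kb before the listed start, so this share includes sequence upstream of it. Within each strain Cyp1a2 was above Cyp1a1 in 9 of 9 strains, by 13.97 points ± 13.1 (SD, n = 9; adjusted p = 0.00558, exact permutation test over 10 pairs as above). The difference ranged from 0.990 in CAST/EiJ to 34.7 in NZO/HlLtJ, so the genes were nearly equal in some strains. Cyp1a2 was at 100% in 7 strains, where Cyp1a1 could not lie above it. It was 8.67 points with 10 kb of padding and 25.06 with states 1 to 3 alone.

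Most of the Cyp1a1 bins outside states 1 to 4 were in state 14. After the start, 7 strains had a run of state 14 that covered 3.99 to 4.99 kb, with lengths from 1.8 through a median of 3.0 to 4.4 kb, and CAST/EiJ and WSB/EiJ had none. Before the start, NOD/ShiLtJ, NZO/HlLtJ and PWK/PhJ had a further run of 2.4, 2.0 and 3.4 kb that covered positions -6.21 to -4.81 kb from the start. These 3 strains were the lowest for Cyp1a1, at 67.3%, 65.3% and 67.3%. In NOD/ShiLtJ 76.2% of the bins were outside state 14, so part of its lower share was in other states. Exchange of states 4 and 14 made up 45.5% of the strain differences at Cyp1a1. Between the runs the strains agreed in part: state 1 held 57696001 to 57696800, which is -1.61 to -0.81 kb from the start, in all 9 strains. Upstream of Cyp1a1 lies the well-known group of Ahr binding sites.

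The 2 P450 genes also differed in how the start itself was marked. Cyp1a2 had state 1 as the most frequent state within 1.0 kb of its start in all 9 strains, and an unbroken 4000 bp of state 1, from -0.55 to 3.45 kb around the start. Around the Cyp1a1 start the most frequent state was 2 in 6 strains, 4 in NZO/HlLtJ and PWK/PhJ, and 1 in NOD/ShiLtJ, with ties given to the lower number. State 1 filled between 1 and 4 of its 11 bins, and state 2 between 3 and 9. State 3 was absent from the start windows of both genes in all strains. Between strains Cyp1a2 mainly exchanged states 1 and 2, which made up 41.3% of its differences. NOD/ShiLtJ differed most from the others at Cyp1a2, by 45.0% of bins on average. It had states 6, 8 and 9 where all others had state 4 in the 600 bp from 57674801 to 57675400. That stretch lies in the padding outside Cyp1a2, whose own span begins at 57676937.

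Cyp1b1 (gene ID 13078, chromosome 17, 79706940 to 79715061), which metabolises steroids and hydrocarbons in extrahepatic tissues, carried none of states 1 to 4 in any strain, as did 27.6% of protein-coding genes by a rule written after this was seen. State 13 covered 40.3% in CAST/EiJ, a median of 51.6% and 61.3% in NOD/ShiLtJ. States 10 and 12 covered a further 25.4% ± 2.39 (SD, n = 9). A block of states 10, 11 and 12 spanned the start, -1.14 to 1.66 kb around it in every strain, with lengths of 2.8 to 3.6 kb and a median of 3.2 kb. States 10 or 12 were in the start window in all 9 strains at Cyp1b1, against 6.29% of protein-coding genes by a rule written after this was seen. Within the block the states varied, and exchange of states 10 and 12 made up 28.9% of the differences between strain pairs. Beyond the block, state 13 ran for 4.0 to 6.8 kb into the gene, and PWK/PhJ and WSB/EiJ had a further short run of state 10 within or just after that stretch.

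Set against Cyp1b1, Cyp1a1 was higher in states 1 to 4 by 82.4 points ± 13.5 and Cyp1a2 by 96.4 points ± 7.44 (SD, n = 9). In state 13 both were lower, with a difference of -51.8 points ± 6.67 in each case. Because one gene of each pair is at 0 in every strain, these differences have a fixed sign, and they are given as descriptions. The lowest Cyp1a1 value, 65.3% in NZO/HlLtJ, was far from the 0 of Cyp1b1, so the ranges did not overlap.

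**Figure D3:**
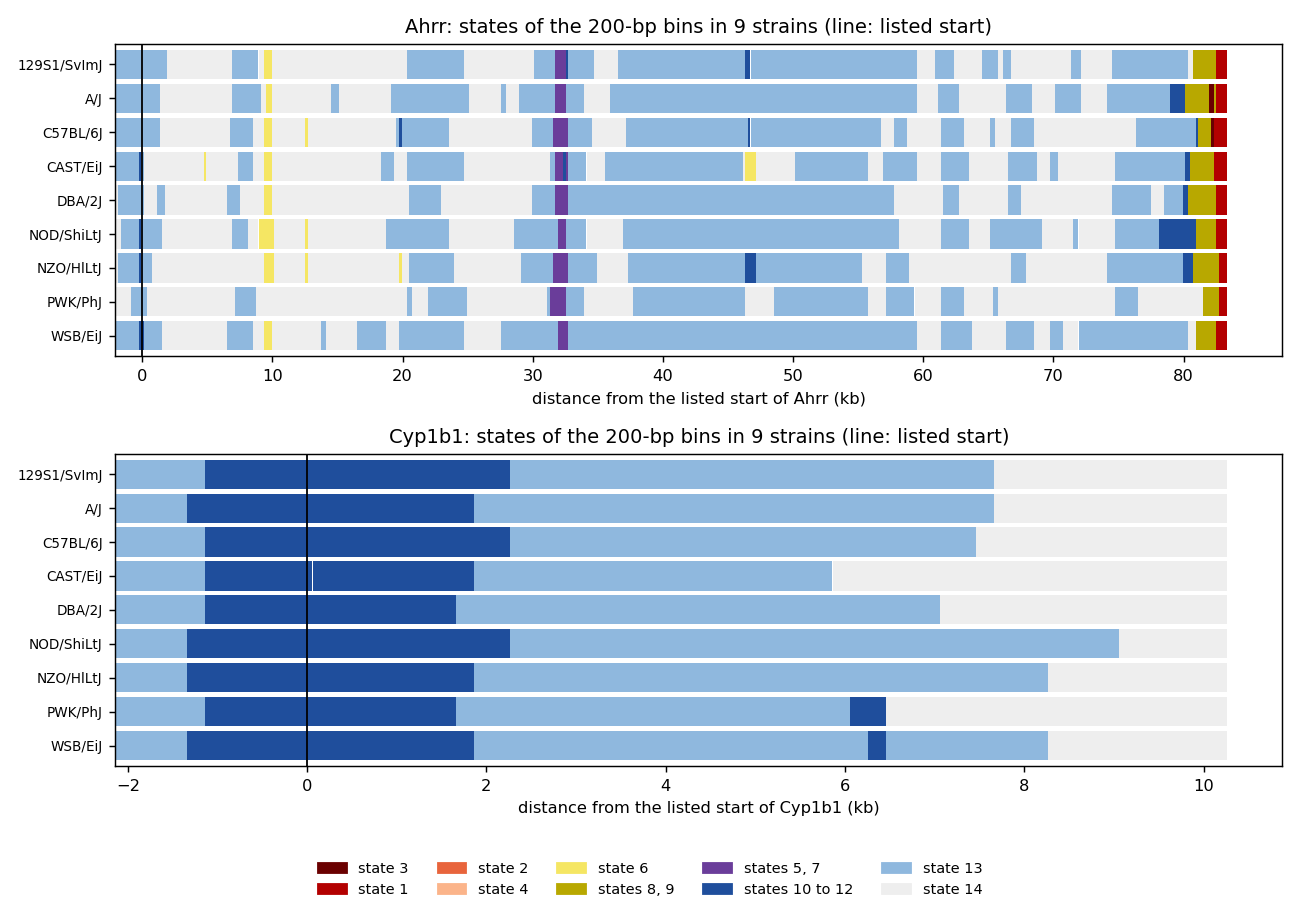
State of each 200-bp bin along Ahrr and Cyp1b1 in the 9 strains, by distance in kb from the listed start. States 10 to 12 cover the Cyp1b1 start in all strains with state 13 after them, and the short block of states 5 and 7 covers 31.93 to 32.33 kb after the Ahrr start in all strains.

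Nqo1 (gene ID 18104, chromosome 8, 107388225 to 107403205), a quinone reductase that is a target of Ahr and of Nfe2l2, had states 1 to 4 over 19.8% of its bins in A/J, a median of 29.2% and 44.8% in WSB/EiJ. The values formed a continuous series with no strain apart. State 1 was the most frequent state around the start in all 9 strains, and state 14 held 5800 bp in all strains from 7.41 to 13.20 kb after the start. State 3 was present in the Nqo1 start window in 5 strains. Just before that stretch, positions 6.41 to 7.00 kb were outside state 14 in all strains.

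Tiparp (gene ID 99929, chromosome 3, 65528447 to 65555518) had the widest block of state 3 that all strains shared at a start among the members. State 3 covered -0.65 to 0.75 kb around the start in every strain, and it was the most frequent state of the start window in all 9. States 1 to 4 made up 13.5% of the gene in A/J and NOD/ShiLtJ, a median of 20.5%, and 44.9% in PWK/PhJ. PWK/PhJ stood apart, since the other 8 strains lay at or below 22.4%. The mean without PWK/PhJ was 18.3% ± 3.95 (SD, n = 8), against 21.3% ± 9.58 with it. With state 6 counted in the class, Tiparp exceeded the median gene by 39.3 points in place of 14.9. Most of the excess in PWK/PhJ was state 2, at 25.6% of bins against a median of 5.13%. PWK/PhJ was also highest in state 1, at 11.5% against a median of 7.69%. Inside Tiparp all 9 strains had states 1 or 2 over 1000 bp at 65541201 to 65542200, 12.75 to 13.75 kb after the start. A long noncoding RNA gene, 4931440P22Rik, overlaps its start region, so the start bins are shared with that gene.

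Across the starts, state 3 lay within 1.0 kb of the listed start in all 9 strains at 4 members (Ahr, Arnt, Tiparp and Nr1i2), where 41.0% of protein-coding genes met this rule. For Ahr both gene ends were searched. Nr1i3 had state 3 there in 7 strains and Nqo1 in 5. Cyp1a1, Cyp1a2, Cyp1b1 and Ahrr had it in none. The same most frequent state was found in all 9 strains at 6 members, against 50.0% of protein-coding genes: state 1 at Arnt, Cyp1a2, Nqo1 and Nr1i3, state 3 at Tiparp and state 13 at Ahrr. Ties went to the lower number, for all genes alike. The call at Ahrr rests on this, since CAST/EiJ had 5 bins each of states 13 and 14 there. Counts of 4 and 6 in 10 are near these backgrounds.

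For each of the 36 pairs of strains, the percent of a gene's bins in different states was taken, and the mean over pairs is given. It was 36.6% for Cyp1a1, 33.3% for Ahr, 32.0% for Tiparp, 27.3% for Cyp1a2, 25.2% for Nqo1, 24.7% for Nr1i3, 23.9% for Ahrr, 19.8% for Cyp1b1, 19.4% for Nr1i2 and 13.5% for Arnt. Cyp1a1 was thus the most variable of the members and Arnt the least, and neighbours in this order, such as Nqo1 and Nr1i3, differed by less than their spread over pairs. Over marked bins alone, those outside state 14 in at least 1 strain, the order changed: Arnt had 29.6%, Nqo1 was highest at 47.4% and Nr1i2 lowest at 19.4%. Without padding Nr1i3 had 16.03%, and with states 13 and 14 merged Ahrr had 4.22% and Cyp1b1 10.7%. The median over the members was 24.95%, against 19.7% over all protein-coding genes, and 8 members were above the latter. This comparison was not matched for state 14, which held 62.2% of the median gene, 0 of Nr1i3 and 66.6% of Arnt. Over marked bins alone, no value was taken for all protein-coding genes, so whether the members vary more than other genes was not tested. Cyp1a1 exceeded 88.7% of protein-coding genes, and Arnt 32.5%. The share of bins with the same state in all 9 strains was 16.8% for Cyp1a1 and 68.5% for Arnt. Pairs of strains share strains, so these values are descriptions.

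**Figure D4:**
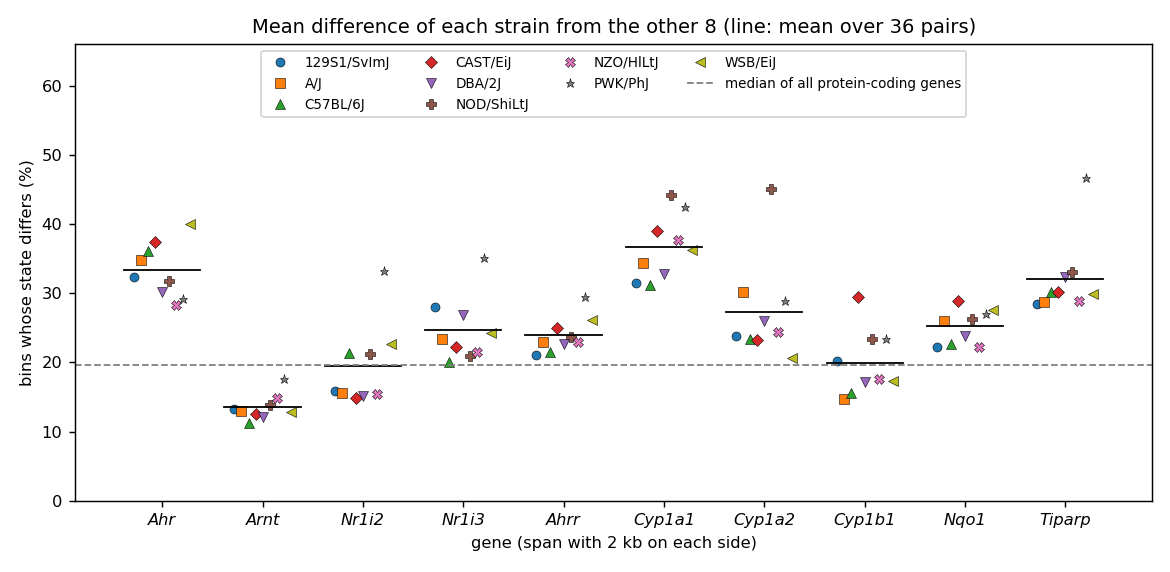
Percent of bins whose state differs between a strain and the other 8, by gene, with 1 symbol per strain, a black line at the mean over 36 pairs and a dashed line at the median of all protein-coding genes. Cyp1a1, Ahr and Tiparp lie highest, Arnt lies lowest, and PWK/PhJ is the top symbol at Ahrr, Arnt, Nr1i2, Nr1i3 and Tiparp.

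Of the 1739 bins, 299 were private, meaning that 1 strain differed and the other 8 agreed, which is 17.2%, against 14.4% of the bins of all protein-coding genes. PWK/PhJ had 92 of them, WSB/EiJ 41, NOD/ShiLtJ 37 and C57BL/6J 34, and the other strains between 16 and 29. PWK/PhJ, a wild-derived strain of another subspecies, was private in 5.29% of the members' bins and in 3.59% of the bins of all protein-coding genes. C57BL/6J was private in 1.96% and 0.684%, while CAST/EiJ lay lower in the members, at 1.67% and 2.33%, as did A/J, at 0.978% and 1.25%. The C57BL/6J bins lay mainly in the padded spans of Ahr (16) and Ahrr (11), and most of those at Ahr were outside the gene itself. Those of PWK/PhJ lay mainly in the padded spans of Nr1i2 (27), Ahrr (22), Arnt (13) and Tiparp (13).

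The rest of the pathway was read through lists of genes, against the 46.0% of all protein-coding genes called higher and the 44.8% called lower. Of 9 genes for the cytoplasmic complex and cofactors of Ahr, 7 were above the strain median for states 1 to 4, 1 was below and 1 passed in neither direction, with a median share of 26.5%. Hsp90ab1 (90.9% ± 7.85) and Ptges3 (58.0% ± 11.5), chaperones that hold the receptor, were highest. The coactivator Ep300 (6.57% ± 1.22, adjusted p = 0.727, same exact permutation test) and the Arnt paralog Arnt2 (2.36% ± 1.03) were lowest, and Arnt2 carried state 13 over 25.1%. Arnt2 thus carried state 13, as Ahrr did and Arnt did not.

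Of 7 further Ahr targets, 5 were higher and 2 lower. The regulator Nfe2l2, which controls antioxidant genes such as Nqo1, was among the highest (86.1% ± 6.81). The aldehyde dehydrogenase Aldh3a1 and Serpinb2 had none of states 1 to 4 in any strain and 36.2% and 29.2% of bins in state 13, like Cyp1b1. Of 17 partners and targets of CAR and PXR, all 17 were higher, with a median of 80.3%. States 1 to 4 were made a class because they lay at hepatocyte genes, and this list includes the hepatocyte marker Hnf4a. The count is therefore no independent result about the pathway. The mean of this list by strain was lowest in PWK/PhJ, at 63.5%, and highest in 129S1/SvImJ, at 84.8%. Rxra, the shared partner of CAR and PXR (99.7% ± 0.348), and Por, which feeds electrons to P450 enzymes (99.0% ± 2.28), were highest. Rxrb (40.9% ± 8.36) and Cyp2c29 (37.3% ± 10.6) were lowest. The median over all protein-coding genes was 6.92%.

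Genes were ranked by likeness to 5 members, as the percent of state composition that the gene and the member share, over the 9 strains and among protein-coding genes of 0.5 to 2 times the member's bins. Nr1i3 was closest to Tomm40l (93.0%), which overlaps its span, then to Hp (89.9%) and Orm1 (89.3%), which encode plasma proteins made by hepatocytes. Ahrr was closest to Ptprc (91.4%), Spink10 (91.3%) and Lemd1 (90.9%), of which Ptprc is a marker of blood cells. Cyp1a2 was closest to Dhdh (84.5%), 2010003K11Rik (83.9%) and Bcl3 (82.5%), and Cyp1a1 to Adora1 (85.3%), 4930432M17Rik (83.6%) and Fam187b (83.2%). Ahr was closest to Ap2a2 (86.1%), Ankrd33b (85.9%) and Pigl (85.6%). The median gene compared shared 1.74% with Nr1i3, 47.1% with Ahrr, 12.2% with Cyp1a2, 26.1% with Cyp1a1 and 46.6% with Ahr.

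The label of the cells was read against markers of cell types. States 1 to 4 were made a class because they lay at hepatocyte genes, so the hepatocyte markers are no independent check of the label, and 46.0% of all protein-coding genes were called higher and 44.8% lower. All 5 hepatocyte markers (Alb, Ttr, Apoa1, Cps1, Hnf4a) were above the strain median for states 1 to 4, with a mean share by strain of 80.6% to 91.0%. None of the 5 Kupffer cell markers and none of the 5 stellate cell markers were above it, and their mean shares by strain lay between 0 and 1.52% and between 0.0517% and 0.577%. Cd5l, Marco and Vsig4 of the Kupffer list and Lrat, Des, Dcn and Pdgfrb of the stellate list had 0 in every strain. Of 5 endothelial markers 2 were higher (Stab2 and Pecam1), with 13.95% to 18.6% by strain, a count near the background, and of 5 bile duct markers 1 was higher (Sox9), with 2.08% to 9.58%. State 13 was called higher at 5 of 5 Kupffer, 4 of 5 stellate, 3 of 5 bile duct and 2 of 5 endothelial markers, and at 28.4% of all protein-coding genes. The part of other cell types in the states of the members was not tested.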

How the data were processed

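Chromatin was sequenced from hepatocytes of 9 strains, and the authors deposited 1 segmentation per strain, in which each interval carries a state from 1 to 14; per the file headers it belongs to that strain, and the deposited values are categories, not a count or signal. Reads were mapped to mm10, with FastQC 0.11.5 and MACS 1.4.2 also named, per the submitters' processing notes. The segmentation tool is not given in the sources used here, and depth is unknown. Intervals were read as 200-bp bins. Gene spans and promoters came from RefSeq tables of GRCm38.p6, the same assembly; state 3 held 16.2% ± 0.975 of the bins at gene starts and 0.389% of the genome.

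Shares of bins per gene and strain were compared with the strain's median protein-coding gene, or between 2 genes, by an exact two-sided sign-flip test over 9 strains (512 patterns), with Benjamini-Hochberg adjustment over 21631 genes or 10 pairs and a threshold of 0.05. Where the table lists no start, windows at both gene ends were used (4357 of 21631 genes). All 10 members are named; of each pathway list the 2 highest and 2 lowest are named, and for 5 members the 3 genes most alike. One gene that this rule names is not reported here. Lists were also compiled for cell type markers. The members, lists and classes were chosen with earlier results of these data known, and the rules marked as written later were set after their values were seen. Code (Python 3.11.15, numpy 2.4.6, pandas 2.3.3, matplotlib 3.10.9) was tested on simulated data. Alternatives covered padding, other state classes, single-bin segments, all annotated genes, window width, matching within 1 bin and each strain left out. The deposited file that joins all strains repeats the strain files and was not used.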

Additional observations from a re-analysis of the deposited data

Results flagged for a closer look

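In 20 sets of 9 strain values (the shares of states 1 to 4 and of state 13 for each member), 2 held a strain farther from its neighbour than Dixon's 95% limit allows. Chance flags about 1 in 20 sets whose values differ between strains, and 10 of the 20 did; the others had the same value in every strain and could not be flagged. Tiparp had 44.9% of its bins in states 1 to 4 in PWK/PhJ, where the other 8 strains lay between 13.5% and 22.4%. Nr1i2 had 73.2% in PWK/PhJ, where the other 8 strains lay between 90.2% and 100%. PWK/PhJ was thus the high strain at Tiparp and the low strain at Nr1i2. It also had the most state 14 in the median protein-coding gene, at 69.7%, and how that bears on these values was not tested. No value per mouse is at hand here, so whether all 3 PWK/PhJ mice share these states was not tested.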

How the results depend on the processing

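No paired analysis was possible because each segmentation pools the 3 mice of its strain, so replicate numbers reach no value used here. The differences Cyp1a2 minus Cyp1a1 and Ahr minus Ahrr in states 1 to 4 kept their sign and their side of the threshold under every alternative run (padding of 0 or 10 kb, other classes, single-bin segments replaced, each strain left out). For Ahr minus Ahrr this says little about stability. Ahrr was near the floor with 2.0 kb of padding, and without padding it had no bin in the class, which fixes the sign. The other 8 pair tests have a gene at 0 or 100% in every strain with 2.0 kb padding, so that their sign is fixed or the difference is 0, and they say nothing about stability. Over all annotated genes, where the median gene had no bin in states 1 to 4, 20340 genes were called higher for states 1 to 4 against 9961, and 13032 for state 13 against 6137; this compares 49554 genes in place of 21631. There Ahrr lay above the median by 1.01 points in place of below it, and Cyp1b1 equalled it at 0. The median difference between strains over the members was 24.95%, 19.02% when a match within 1 bin counted, and 29.3% over marked bins alone (bins outside state 14 in at least 1 strain), and 23.5% to 26.0% with a strain left out. With states 13 and 14 merged, the difference at Ahrr went from 23.9% to 4.22% and at Cyp1b1 from 19.8% to 10.7%. Without padding, that at Nr1i3 went from 24.7% to 16.03%. Private bins numbered 297 with single-bin segments replaced, against 299. Windows of 0.5 and 2 kb gave 4 members with state 3 in all strains, and 6 and 4 members with 1 most frequent state. Depth per strain is unknown, so which differences between strains depth limits cannot be said. Leaving out any 1 strain changed no call of a member or a pair.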
